A study of Saccharina japonica with 2 samples.

Results

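Among the annotated unigenes (assembled transcripts) of the kelp Saccharina japonica, 32 carry an annotation that names a membrane transporter, channel, exchanger or symporter. They were chosen by the wording of the annotation alone, from the 1998 annotated entries at hand, and none was left out for a chloroplast, plastid, mitochondrial, ubiquitin or kinase annotation or as a listed photoreceptor or light response unigene. All 32 had reads in both libraries, out of 70288 unigenes with a read in the series. The annotation of the remaining unigenes was not analysed here, so the 32 are a part of the transport unigenes of this kelp. They are neither a full set nor a random sample. The annotated entries at hand had a median GC content of 57.58% and a median length of 856.5 bp. Over all unigenes with a read these medians were 52.28% and 355 bp.

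Transporters and channels are the membrane proteins that move ions, nutrients and metabolites into, out of and within a cell. ABC transporters are driven by ATP, symporters and exchangers by the gradient of another ion, and channels open a pore through which ions flow down their own gradient. In a kelp, which has no roots, the blade takes up inorganic nitrogen, phosphate and metal ions directly from seawater, and the carriers of its internal membranes supply the Golgi apparatus and the plastid. The label rests on the wording of the annotations alone, and no sequence or protein evidence was used to check it. The annotations vesicletransporter and protein transporter name traffic of vesicles or proteins and not of solutes, and a potassium channel tetramerisation domain also occurs in proteins that form no channel. A further 10 members are annotated as transporter or transporter protein with no substrate.

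The BL group was a pool of sporophyte thalli, healthy vegetative tissue, immersed in sterilized seawater under blue light for 2 h, and the dark group was a pool immersed for 2 h in darkness. Both had been kept in darkness for 4 h before. The labels call the thalli mature and the study's methods describe them as juvenile, and no strain is given. Each pool of several individuals gave 1 library, so no spread between kelps or cultures could be measured, and every comparison is of 1 library with the other and not of the treatments. The poly(A) RNA libraries held 11410538 uniquely aligned reads for BL and 10905306 for dark, and the median unigene of each list had 29 reads in BL and 22 in dark. As markers of brown algal thallus, the 6 mannuronan C-5-epimerase unigenes, whose enzymes shape the alginate of the cell wall, had 30 to 1597 reads in BL and 29 to 1843 in dark. Single epimerase unigenes differed between the libraries. Unigene11628 had 870 reads in BL and 207 in dark, while Unigene10811 had 1597 in BL and 1843 in dark. The 2 light harvesting complex unigenes had 378 and 2019 reads in BL and 314 and 923 in dark. The annotations at hand hold no set of markers that would tell tissues, or organisms growing on the thalli, apart. In such pools, a smaller share of cells that express a gene and less of its RNA per cell cannot be told apart.

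Levels are given as RPKM, the reads of a unigene scaled to its length in kilobases and to the uniquely aligned reads of the library, and differences as the log2 ratio of BL over dark RPKM. Each ratio carries its exact Clopper-Pearson 95% confidence interval (CI), which covers counting error only. A unigene was called higher or lower in BL when the 2-sided Audic-Claverie test gave a P up to 0.05 and a false discovery rate (FDR, Benjamini-Hochberg over all unigenes with a read) up to 0.001, and the log2 ratio was at least 1 in size. The study's length minimum of 500 bp was met by 25 members, and the other 7 were judged without it. Across the transcriptome the log2 ratio rose with GC content, so each call lost when the median trend with GC was removed is given beside its value.

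The members differed between the BL and the dark library in both directions. Of the 25 members of at least 500 bp, 7 were called higher and 4 lower in BL, or 28.0% and 16.0%. Over all 23163 unigenes of that length, 33.5% were called higher and 16.6% lower, 50.1% in all. Among the annotated entries at hand, from which the members were drawn, 37.8% of those of at least 500 bp were called higher and 9.97% lower. The members' shares lay near those of all unigenes. They held a smaller share of higher and a larger share of lower calls than the annotated entries, a difference that was not tested. With the GC trend removed, the shares of lower calls lay close together, at 5 of the 25 members and 19.6% of the annotated entries of that length. Without the length minimum, 9 of the 32 were called higher and 4 lower, against 25.0% and 11.6% of all unigenes. The exact interval lay wholly beyond the fold threshold for 12 of these 13, the exception being Unigene14028. Of the 19 members not called, 7 were past the FDR and short of the fold threshold, 4 of them lower and 3 higher in BL. The intervals of another 7 included a ratio of 0. The like shares over all unigenes were not counted, so these interval and FDR counts are no result about the members. The median log2 ratio of the 25 longer members was -0.05, against 0.26 over all unigenes of that length (those at 0 in a library put at 3 reads there) and 0.55 over the annotated entries of that length. Over all 32 members it was 0.20, against 0.56 over all annotated entries at hand and 0.67 over all unigenes with a read.

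**Figure D1:**
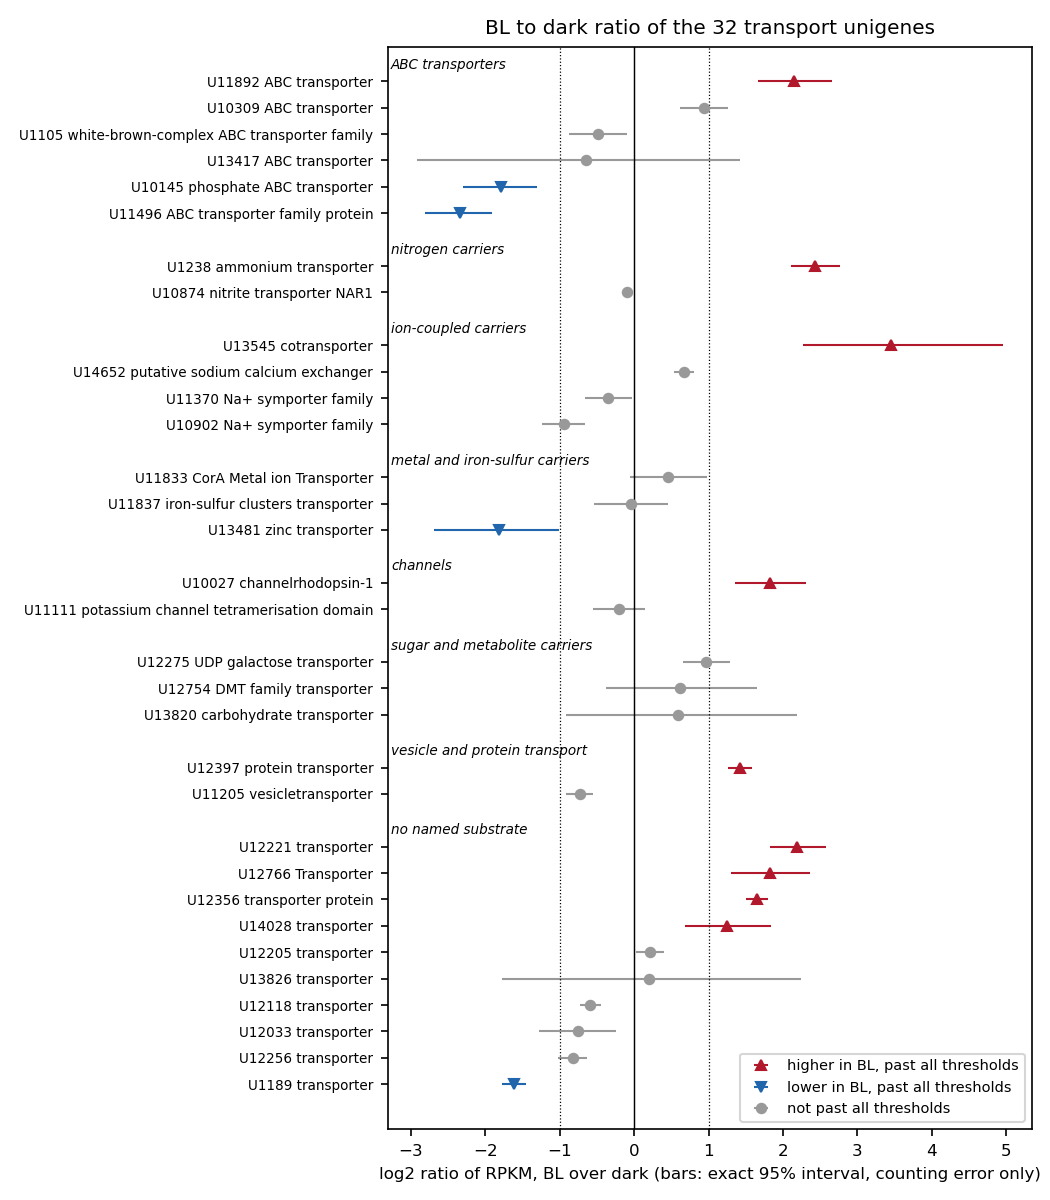
Log2 ratio of RPKM, BL over dark, for each of the 32 transport unigenes (U, Unigene), arranged by function. Points are the ratios, bars the exact 95% intervals (counting error only, 1 library per treatment), dotted lines the fold threshold; triangles mark the 9 unigenes called higher and the 4 called lower in BL without a length minimum, and most functional groups hold members on both sides of 0.

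How many members were called lower depended on the scaling. TMM factors shifted every log2 ratio by -0.29 and median-of-ratios size factors by -0.42. Of the members of at least 500 bp, 7 were then called higher and 7 lower with TMM factors (28.7% and 23.6% of all), and 7 higher and 8 lower with median-of-ratios size factors (26.4% and 27.4%). The Na+ symporter Unigene10902, the vesicletransporter Unigene11205 and the transporter Unigene12256 were called lower under both. The 7 called higher were so under all 3 scalings. The median log2 ratio of the 32 turned to -0.083 by TMM and to -0.22 by the median-of-ratios scaling. When edgeR's exact test was run with a coefficient of variation between samples set to 0.2, 5 were called higher and 2 lower (21.4% and 5.53% of all). When it was set to 0.4, none was called in either direction (2.24% and 0.224% of all). An unadjusted P up to 0.05 was then reached by 7 of the 25. The share of all unigenes that reached it was not counted, so the 7 are no result about the members. A log2 ratio of at least 2 in size was reached by 3 called higher and 1 called lower (20.6% and 4.2% of all).

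The 6 ABC transporter unigenes did not move together. ABC transporters form one of the largest families of membrane proteins and export or import a wide range of molecules at the cost of ATP. Unigene11892 (950 bp) had 200 reads in BL and 43 in dark, 18.5 and 4.15 RPKM. It was called higher in BL, with a log2 ratio of 2.15 (CI 1.67 to 2.66) and an FDR of 6.68e-23. With the GC trend removed its ratio was 0.78, below the fold threshold. Unigene10309 (522 bp), also annotated as an ABC transporter, had 244 reads in BL and 122 in dark. Its ratio of 0.93 (CI 0.62 to 1.26) was past the FDR, at 1.10e-08, and just short of the fold threshold, and it was -0.93 with the GC trend removed.

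The members at the other end of the family were lower in BL. Unigene11496 (1032 bp), an ABC transporter family protein, had 51 reads in BL and 248 in dark, 4.33 and 22.0 RPKM. With a log2 ratio of -2.35 (CI -2.81 to -1.91) it had the lowest ratio of all 32, and the call was kept with the GC trend removed, at -1.37. The phosphate ABC transporter Unigene10145 (1078 bp), whose annotation is that of the bacterial type of phosphate importer, had 46 reads in BL and 152 in dark. Its log2 ratio was -1.79 (CI -2.30 to -1.31), and -0.86 with the trend removed, when the call was lost. The intervals of these 2 unigenes did not overlap that of Unigene11892. They had 41.28% and 41.65% GC, the lowest of the members, where Unigene11892 had 58.84%.

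The other 2 ABC unigenes were not called. The white-brown-complex ABC transporter Unigene1105 (518 bp) belongs by name to the subfamily of the Drosophila eye pigment transporters. It had 97 reads in BL and 130 in dark, a log2 ratio of -0.49 (CI -0.88 to -0.10). With the GC trend removed it was called lower, at -2.10. Unigene13417 (205 bp), the shortest ABC unigene, had 4 reads in BL and 6 in dark, and an interval from -2.92 to 1.43. Summed over the 6, the ABC unigenes held 642 reads in BL and 701 in dark, a log2 ratio of -0.19 (CI -0.35 to -0.04), while the ratios of its members ran from -2.35 to 2.15.

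The 2 nitrogen carriers differed from each other. The ammonium transporter Unigene1238 (1809 bp), of the protein family that takes up ammonium for assimilation into amino acids, had 502 reads in BL and 89 in dark, 24.3 and 4.51 RPKM. It was called higher in BL, 5.39-fold, with a log2 ratio of 2.43 (CI 2.10 to 2.77) and an FDR of 2.00e-65. The call was kept with the GC trend removed, at 1.12. Its reads covered 97.84% of the unigene in BL and 80.6% in dark. The nitrite transporter NAR1 Unigene10874 (2587 bp) is named after a carrier that, in the green alga Chlamydomonas, brings nitrite into the chloroplast. It was the most-read of the 32, with 3765 reads in BL and 3862 in dark, which is 28.9% of the members' BL reads and 34.0% of their dark reads. Its level was 128 RPKM in BL and 137 in dark, and its log2 ratio of -0.10 (CI -0.17 to -0.04) was short of both the FDR and the fold threshold. The intervals of the 2 carriers did not overlap.

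**Figure D2:**
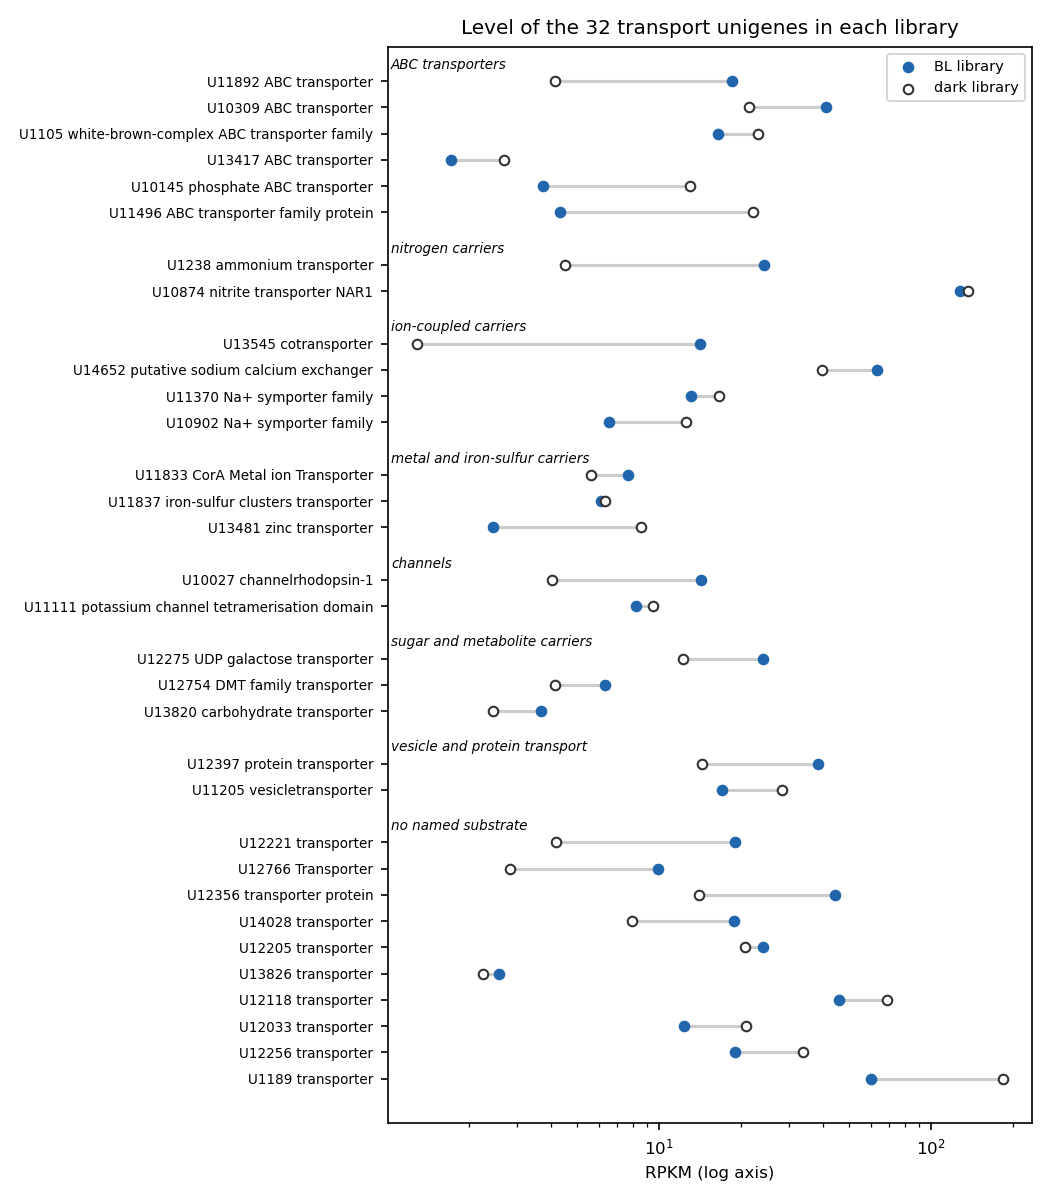
RPKM (log axis) of each of the 32 transport unigenes in the BL library (filled) and the dark library (open), arranged by function. The nitrite transporter Unigene10874 stands at 128 RPKM in BL and 137 in dark, while the transporter Unigene1189 stands at 59.9 in BL and 183 in dark and the cotransporter Unigene13545 at 14.1 in BL and 1.29 in dark.

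Among the ion-coupled carriers the largest ratio of all members was found. The cotransporter Unigene13545 (428 bp), whose annotation names no ion or substrate, had 69 reads in BL and 6 in dark, 14.1 and 1.29 RPKM. Its log2 ratio was 3.46 (CI 2.26 to 4.95) with an FDR of 2.80e-13, and reads covered 88.32% of it in BL and 46.26% in dark. It is below the length minimum, and with the GC trend removed its ratio of 1.60 was no longer past the FDR. The putative sodium calcium exchanger Unigene14652 (1668 bp), of a family that moves calcium against sodium, had 1198 reads in BL and 722 in dark. Its log2 ratio of 0.67 (CI 0.53 to 0.80) was past the FDR, at 3.39e-22, and short of the fold threshold.

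The Na+ symporter family, which couples the uptake of a solute to the inward flow of sodium, was represented by 2 unigenes, and neither was called. Unigene10902 (2078 bp) had 155 reads in BL and 285 in dark, a log2 ratio of -0.94 (CI -1.24 to -0.66) and an FDR of 9.79e-11. Unigene11370 (1064 bp) had 159 reads in BL and 193 in dark, a log2 ratio of -0.34 (CI -0.66 to -0.03). Both ratios were below 0, also with the GC trend removed, at -0.67 and -0.32.

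The 3 metal and iron-sulfur carriers had few reads, 168 in BL and 183 in dark in all. The zinc transporter Unigene13481 (608 bp) was called lower in BL. It had 17 reads in BL and 57 in dark, 2.45 and 8.60 RPKM, and reads covered 55.26% of it in BL and 87.83% in dark. Its log2 ratio was -1.81 (CI -2.69 to -1.01) with an FDR of 2.74e-06, and -1.71 with the GC trend removed, and still called. The CorA metal ion transporter Unigene11833 (900 bp), of a family best known for the uptake of magnesium, had 79 reads in BL and 55 in dark. Its interval, from -0.06 to 0.98, included 0. The iron-sulfur clusters transporter Unigene11837 (1033 bp), named for the cofactors of electron-transfer proteins, had 72 reads in BL and 71 in dark, a log2 ratio of -0.05 (CI -0.54 to 0.45).

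Of the channel annotations, channelrhodopsin-1 is that of a cation channel opened by light, known from the eyespot of Chlamydomonas. The unigene with this annotation, Unigene10027 (1117 bp), had 181 reads in BL and 49 in dark, 14.2 and 4.02 RPKM. It was called higher in BL, 3.53-fold, with a log2 ratio of 1.82 (CI 1.36 to 2.31) and an FDR of 7.52e-17. With the GC trend removed the ratio was 0.86 and the call was lost. The unigene with a potassium channel tetramerisation domain, Unigene11111 (1372 bp), had 129 reads in BL and 142 in dark. Its log2 ratio was -0.20 (CI -0.56 to 0.15), an interval that did not overlap that of the channelrhodopsin unigene.

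None of the 3 carriers of sugars and metabolites was called, and all 3 ratios were above 0. The UDP galactose transporter Unigene12275 (919 bp), of the carriers that bring activated sugars into the Golgi apparatus, had 252 reads in BL and 123 in dark, 24.0 and 12.3 RPKM. Its log2 ratio of 0.97 (CI 0.65 to 1.29) was past the FDR, at 1.95e-09, and short of the fold threshold. With the GC trend removed it was called higher, at 1.25. The DMT family transporter Unigene12754 (333 bp), of the drug and metabolite transporters, had 24 reads in BL and 15 in dark. The carbohydrate transporter Unigene13820 (262 bp) had 11 reads in BL and 7 in dark. The intervals of these 2 short unigenes, -0.38 to 1.65 and -0.91 to 2.19, included 0, and with the GC trend removed their ratios were -0.76 and -0.01.

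The 2 unigenes of intracellular traffic lay on opposite sides of 0. The protein transporter Unigene12397 (2649 bp) had 1158 reads in BL and 413 in dark, 38.3 and 14.3 RPKM. It was called higher in BL, with a log2 ratio of 1.42 (CI 1.26 to 1.59) and an FDR of 3.82e-73. At 63.68% GC it lay below the median of unigenes of like GC content, and its ratio was -0.46 with the trend removed. The vesicletransporter Unigene11205 (2011 bp) had 391 reads in BL and 621 in dark. Its log2 ratio of -0.73 (CI -0.92 to -0.55) was past the FDR and short of the fold threshold.

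The 10 unigenes annotated as transporters without a substrate held 4233 reads in BL and 3949 in dark, a log2 ratio of 0.03 (CI -0.03 to 0.10) for the sum. Single members differed far more, from -1.61 to 2.19. Of the 10, 4 were called higher and 1 lower in BL, against 25.0% and 11.6% of all unigenes without a length minimum. Unigene12356 (3226 bp), the longest of the 32, had 1625 reads in BL and 493 in dark, a log2 ratio of 1.66 (CI 1.51 to 1.80). Its call was kept with the GC trend removed, at 1.89. Unigene12221 (1610 bp) had 348 reads in BL and 73 in dark, and Unigene12766 (1271 bp) had 144 in BL and 39 in dark. Their log2 ratios were 2.19 (CI 1.82 to 2.57) and 1.82 (CI 1.30 to 2.37), and both calls were lost with the trend removed, at 0.39 and 0.90. Unigene14028 (427 bp) had 92 reads in BL and 37 in dark, a log2 ratio of 1.25 (CI 0.68 to 1.84). The ratio became 0.96 with TMM factors, 0.83 with median-of-ratios size factors and -0.62 with the GC trend removed, so its call was lost under each.

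The only one of the 10 called lower was Unigene1189 (606 bp), which had the highest level per length of all members in dark. It had 414 reads in BL and 1210 in dark, 59.9 and 183 RPKM, a log2 ratio of -1.61 (CI -1.78 to -1.45) and an FDR of 5.56e-97. The call was kept with the GC trend removed, at -1.64. Unigene12118 (1370 bp) had 717 reads in BL and 1030 in dark, and Unigene12256 (1531 bp) had 332 in BL and 563 in dark. Their log2 ratios of -0.59 (CI -0.73 to -0.45) and -0.83 (CI -1.03 to -0.63) were past the FDR and short of the fold threshold, and the ratio of Unigene12118 was -1.46 and called with the GC trend removed. The remaining 3 were not past the FDR. Unigene12033 (371 bp) had 52 reads in BL and 84 in dark, with a log2 ratio of -0.76 (CI -1.28 to -0.24). It was called lower with the trend removed (-2.66) and under both other scalings (-1.04 by TMM, -1.18 by median-of-ratios). Unigene12205 (1836 bp) had 503 reads in BL and 415 in dark, with a log2 ratio of 0.21 that was -0.08 with TMM factors. Unigene13826 (204 bp) had 6 reads in BL and 5 in dark.

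The median level of the 32 members was 15.3 RPKM in BL and 12.4 in dark. It was 16.8 and 10.7 RPKM over the annotated entries at hand, 13.6 and 11.0 over all unigenes of at least 500 bp, and 6.53 and 3.97 over all unigenes with a read. Of the 32, 16 stood at or above percentile 75 of all unigenes with a read in BL and 14 in dark. Together they took 0.114% of the BL reads and 0.104% of the dark reads. The level ran from 1.71 RPKM for the ABC unigene Unigene13417 to 128 for the nitrite transporter in BL, and from 1.29 for the cotransporter to 183 for Unigene1189 in dark. Of the 5 highest levels in BL and the 5 highest in dark, 4 belonged to the same unigenes, namely the nitrite transporter, Unigene1189, Unigene12118 and the sodium calcium exchanger. The order of levels across the 32 was only partly shared by the libraries, with a Spearman coefficient of 0.59 across unigenes of the same 2 libraries. The cotransporter ranked 18 of 32 in BL and 32 in dark, and the ABC unigene Unigene11496 ranked 27 in BL and 8 in dark. Reads covered at least 90% of the length of 27 members in BL and of 22 in dark.

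The log2 ratio of the members rose with their GC content, as it did across the transcriptome. The Spearman coefficient was 0.51 over the 32 members and 0.53 over the 34834 unigenes with at least 50 reads, values that share the same 2 libraries. The 17 members above 55% GC held 8 of those called higher and none called lower, with a median log2 ratio of 0.93. Among all unigenes above 55% GC, 43.4% were called higher and 2.66% lower without a length minimum, with a median log2 ratio of 1.67 (unigenes at 0 again put at 3 reads). The 15 members of at most 55% GC held 1 called higher, Unigene12356, and the 4 called lower, with a median of -0.34. Among all unigenes of at most 55% GC these shares were 13.4% and 17.2%, with a median of -0.07. Unlike GC content, length showed little relation to the ratio (Spearman 0.09).

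**Figure D3:**
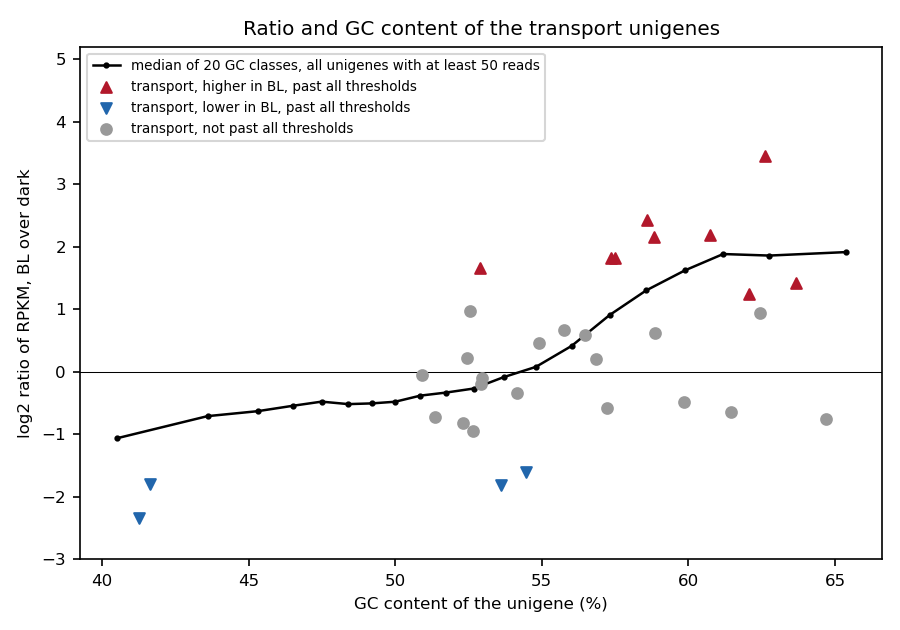
Log2 ratio of RPKM, BL over dark, against the GC content (%) of the 32 transport unigenes, with the line through the medians of 20 classes of equal size of all unigenes with at least 50 reads. Triangles mark unigenes past all thresholds without a length minimum; the members called lower lie at 41.28% to 54.46% GC, those called higher at 52.88% to 63.68%, and 1 unigene at 52.88%, Unigene12356, lies far above the line.

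With the trend removed and no length minimum, 3 of the 32 members were called higher and 6 lower, against 17.3% and 9.9% of all unigenes. Of the 13 earlier calls, 5 were kept, and the share of calls kept over all unigenes was not counted. Kept higher in BL were the ammonium transporter Unigene1238 and the transporter Unigene12356. Kept lower were the ABC unigene Unigene11496, the transporter Unigene1189 and the zinc transporter Unigene13481. In all, 3 of the 25 members of at least 500 bp were then called higher and 5 lower, against 21.9% and 15.0% of all unigenes of that length. Among the annotated entries of that length the shares were 16.2% and 19.6%. The members' share of higher calls was still the smaller one, and their share of lower calls lay near that of the annotated entries. These differences were not tested. The median log2 ratio of the 32 was -0.35 after removal, and -0.24 over the annotated entries at hand. Over all unigenes with a read it was 0.43, and over those of at least 500 bp it was 0.07 (those at 0 in a library ranked outermost in both).

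A further 15 annotated entries name membrane transport in other words (permease, efflux protein, aquaporin, ion-pumping ATPase, proton translocation, translocator). Of the 13 with at least 500 bp, 7 were called higher in BL and none lower, or 53.8% and 0%. Over all unigenes of that length the shares were 33.5% and 16.6%. The 13 had a median log2 ratio of 1.36, against -0.05 for the 25 transporters and channels of that length. Over all 15 it was also 1.36, against 0.20 for all 32. With the GC trend removed, the medians of all 15 and all 32 were 0.63 and -0.35. The lists were small and the difference between them was not tested. Ion pumps, which build the gradients that symporters and exchangers use, had some of the largest ratios. The Na-ATPase Unigene10158 had 813 reads in BL and 38 in dark, a log2 ratio of 4.35 (CI 3.88 to 4.86). The unigene annotated as vacuolar proton translocating, Unigene10974, had 5364 reads in BL and 703 in dark, a log2 ratio of 2.87 (CI 2.75 to 2.98). The Ca2+-ATPase Unigene12533 had 659 reads in BL and 100 in dark, a log2 ratio of 2.65 (CI 2.35 to 2.97).

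**Figure D4:**
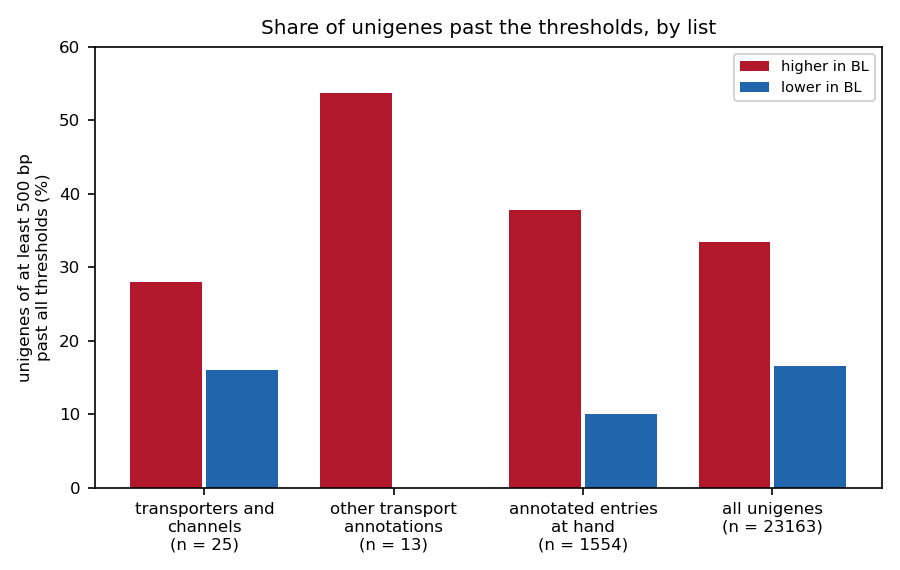
Share (%) of the unigenes of at least 500 bp that passed all thresholds, higher or lower in BL, in the transporter and channel list (25 unigenes), the other transport annotations (13), the annotated entries at hand (1554) and all unigenes (23163). The transporters and channels stand at 28.0% higher and 16.0% lower, the annotated entries at 37.8% and 9.97%, all unigenes at 33.5% and 16.6%, and the other transport annotations at 53.8% and 0%.

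Water and metal transport was also represented among these 15. The aquaporin Unigene10600 (316 bp), a water channel whose annotation lacks the word channel, had 257 reads in BL and 12 in dark and the highest ratio of the 15, at 4.36 (CI 3.53 to 5.33). The iron permease Unigene11381 had 2580 reads in BL and 393 in dark, a log2 ratio of 2.65 (CI 2.50 to 2.81). The cation efflux unigenes Unigene1111 and Unigene14177 had log2 ratios of 1.87 (CI 1.54 to 2.22) and 1.36 (CI 0.86 to 1.89), and the permease Unigene1373 had 2.23 (CI 1.83 to 2.65). The lowest ratio among those with at least 10 reads in each library was that of the MATE efflux unigene Unigene13451, with 79 reads in BL and 92 in dark and a log2 ratio of -0.29 (CI -0.74 to 0.16). After removal of the GC trend, 4 of the 13 were called higher and 1, the MATE unigene, lower (21.9% and 15.0% of all unigenes of that length). The Na-ATPase (2.75), the proton translocating unigene (1.33), the iron permease (2.60) and Unigene1111 (2.14) kept their calls, as did the shorter aquaporin (2.49), while those of the Ca2+-ATPase (0.88), Unigene1373 (0.35) and Unigene14177 (-0.55) were lost.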

How the data were processed

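Per the paper, the authors cleaned the reads of adaptors and unknown bases, used SOAPdenovo for assembly, merged redundant unigenes and mapped the reads to them. The aligner is not given in the sources used here. The deposited counts are the authors' whole numbers of uniquely aligned reads per unigene, without normalization. The deposited percent values are, per the file headers, the covered share of each unigene and its GC content. Unigenes absent from a list were taken as 0. Annotations came from the authors' supplementary lists, of which 1998 entries were at hand. Unigene sequences were not used here, so unigenes that are fragments of 1 transcript, or near-identical copies, cannot be told apart.

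RPKM, the Audic-Claverie test (observed count in both tails) and exact intervals were computed with scipy 1.17.1 in Python 3.11.15 over all unigenes. The test and the intervals were tried on simulated data with counting error alone, which cannot show how they act with spread between kelps. A call needed P up to 0.05, FDR up to 0.001, a log2 ratio of 1 or more in size and, where stated, 500 bp. Alternatives used edgeR 4.0.16 (TMM, exact test with assumed coefficients of variation of 0.2 and 0.4) and size factors of DESeq2 1.42.0. For the GC trend, unigenes with 50 or more reads and 1 in each library were put into 20 equal classes by GC content, the class medians of the log2 ratio were joined by a line, and this line was subtracted and entered in the library sizes of the test. The members, lists, tests and alternatives were chosen with earlier results of these data known. All members are named, with those of the other transport annotations that were called or had the highest or lowest ratio at 10 reads or more in each library.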

Additional observations from a re-analysis of the deposited data

How the results depend on the processing

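With 1 library per treatment, no replicate could be left out. No paired analysis was possible because each treatment has 1 library and the labels carry no replicate number. The transcriptome held 11607 calls, against 25696 without a length minimum, 5736 at a log2 ratio of 2 or more in size, and 6238 and 572 with assumed coefficients of variation of 0.2 and 0.4. Of the 25 members of at least 500 bp, 7 were called higher in BL (9 of all 32 without a length minimum), against 3 with the GC trend removed, 3 at a log2 ratio of at least 2 and 0 with a coefficient of variation of 0.4. Those called lower numbered 4, against 7 with TMM factors, 8 with median-of-ratios size factors, 2 and 0 with coefficients of variation of 0.2 and 0.4, and 1 at a log2 ratio of at least 2. With 0.4, 7 of the 25 had an unadjusted P up to 0.05, and the share of all unigenes at that P was not counted. Fisher's exact test and a minimum of 10 reads left both counts as they were. Among all unigenes of at least 500 bp, 33.5% were called higher and 16.6% lower, and these shares moved as well. The higher share was 21.9% after GC removal, 20.6% at a log2 ratio of at least 2 and 2.24% at a coefficient of 0.4. The lower share rose to 23.6% by TMM and 27.4% by median-of-ratios scaling. It fell to 5.53% and 0.224% at coefficients of 0.2 and 0.4, and to 4.2% at a log2 ratio of at least 2.

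The median log2 ratio of the members, 0.20, was -0.083 with TMM factors, -0.22 with median-of-ratios size factors and -0.35 with the GC trend removed, and 0.17 with a pseudocount of 1 RPKM. Ratios that changed sign with the GC trend removed were those of Unigene10309 (-0.93), Unigene10874 (0.12), Unigene11111 (0.022), Unigene11837 (0.33), Unigene12397 (-0.46), Unigene12754 (-0.76), Unigene13820 (-0.0068), Unigene13826 (-0.54) and Unigene14028 (-0.62). With TMM and median-of-ratios factors, Unigene12205 (-0.076 and -0.21) and Unigene13826 (-0.090 and -0.22) changed sign. The cause of these changes beyond the shift of each setting was not tested. Depth limits the shortest unigenes most. At 4 and 6 reads, the interval of Unigene13417 ran from -2.92 to 1.43.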
